A study of Schizosaccharomyces pombe with 4 samples.

Results

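The genes described here are 8 fission yeast (*Schizosaccharomyces pombe*) genes for nucleolar proteins that act on ribosomal RNA, among 4870 genes named on the arrays. They were chosen by symbol or systematic ID, with earlier results of these data known, which the p-values do not take into account. The ID or symbol itself named the probe of 7 of them, and the probe of *fib1* is written fib on the arrays, a synonym in the gene table. *nop14* (SPBC3F6.04c) was included with its high deposited *sim3-205* ratios known, so its *sim3-205* values are a description without a test. The other 7 are *gar2* (SPAC140.02), *fib1* (SPBC2D10.10c), *nop56* (SPBC646.10c), *nop58* (SPAC23G3.06), *cbf5* (SPAC29A4.04c), *gar1* (SPBC20F10.01) and *nop2* (SPBP8B7.20c).

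RNA of log phase *sim3-143* or *sim3-205* mutant cells was hybridized together with RNA of wild-type (wt) cells on spotted ORF arrays. Sim3 is a histone-binding protein of the NASP family, and both alleles are missense mutations. There were 4 arrays, 2 per allele. The mutant was in Cy3 on replicate 1 of each allele and in Cy5 on replicate 2. The array of *sim3-205* replicate 2 was deposited under another array platform than the others. A probe has 2 spots on an array and therefore 4 data points in an allele. The sources used here do not state the strain backgrounds and temperature of these cultures, or whether RNA extracts or wild-type RNA were used on more than one array. Here n = 2 counts arrays, and the p-values measure only spread between arrays. This spread was estimated for each gene over the 4 arrays of both alleles together and drawn toward that of all genes. A *sim3-143* p therefore also draws on the *sim3-205* arrays, unless these were left out.

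In the nucleolus, RNA polymerase I transcribes a long precursor that is modified, folded and cut into the mature rRNAs. Box C/D snoRNPs guide methylation of the ribose, and box H/ACA snoRNPs guide the conversion of uridine to pseudouridine. A large assembly on the 5′ part of the precursor, the small-subunit processome, holds it while the rRNA of the small subunit is released, and a separate set of factors builds the large subunit. In dividing yeast the genes of this pathway are known to be expressed together and to fall together under stress.

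Gene names follow the spot layout of *sim3-143* replicate 1 on all arrays. The names written for *sim3-143* replicate 2 and *sim3-205* replicate 1 matched this layout at 0.52% of spots. By the layout, blank spots on these 2 arrays had median intensities, summed over both dyes, of 354 and 264. By the written names these medians were 4634.5 and 3117. Median spot intensities lay between 1252 and 2301, and median local backgrounds between 103.5 and 151.5. On *sim3-205* replicate 1, 3 of 32 grids had unrelated dye intensities, and none of the 8 genes is printed there. The mutated gene itself, *sim3*, had a mean log2 ratio of mutant over wild-type of 0.11 ± 0.21 (SD, n = 2 arrays) in *sim3-143* and of -0.13 ± 0.19 in *sim3-205*.

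On each of the 4 arrays the transcript of *nop14* was above wild-type, while 6 of the other 7 genes had no allele in which they passed 1.5-fold and 1, *fib1*, was lower in *sim3-143*. A gene counted as past a fold if 3 or more of its 4 data points exceeded it in one direction. By this rule 1 of the 8 genes was higher past 1.5-fold in *sim3-143*, where 2.11% of 4838 genes were, and 1 was lower, where 1.38% were. Past 2-fold, *nop14* alone was higher in *sim3-143*, where 0.496% of all genes were, and none was lower, where 0.0413% were. In *sim3-205*, *nop14* was the single gene of the set past 1.5-fold, where 2.6% of 4855 genes were higher and 0.618% lower, and past 2-fold, where 0.639% were higher. These *sim3-205* shares stand beside a gene chosen on those arrays and nothing is read from them.

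**Figure D1:**
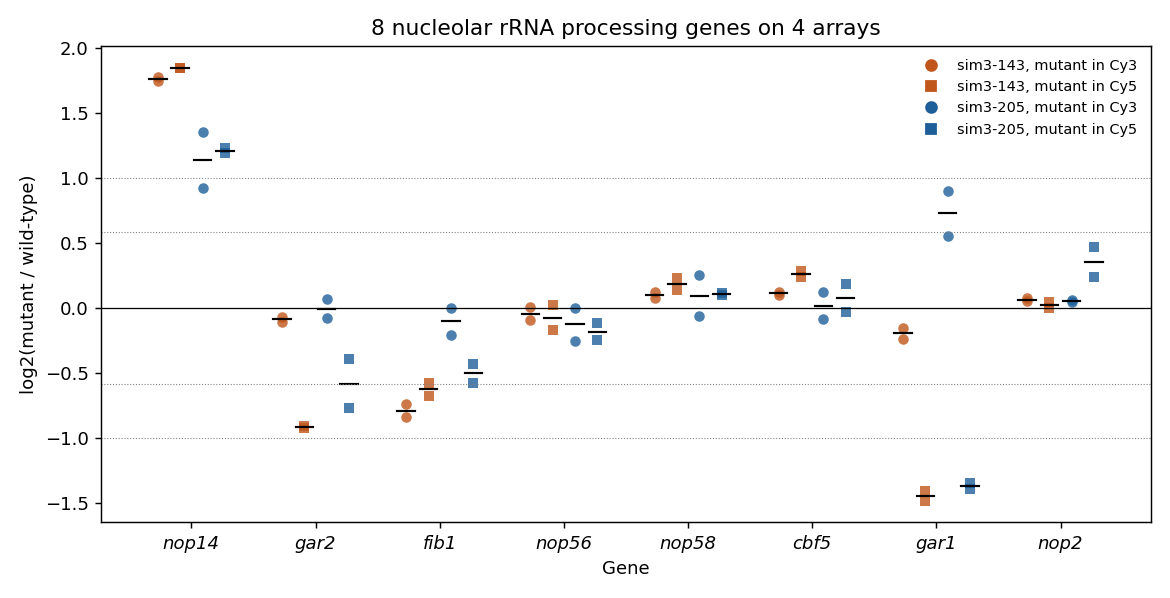
Log2 of mutant over wild-type (vertical axis) for each of the 8 genes (horizontal axis) in each spot. Circles are arrays with the mutant in Cy3 and squares arrays with it in Cy5, orange for *sim3-143* and blue for *sim3-205*. Black bars are array means, and dotted lines mark 1.5-fold and 2-fold. The lowest of the 8 points of *nop14* is at 0.92, and those of *gar1* lie near -1.4 on both arrays with the mutant in Cy5.

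Nop14 is a small-subunit processome protein, studied mainly in budding yeast, where it is needed to make the rRNA of the small subunit. In *sim3-143* its log2 ratio was 1.76 on replicate 1, from spots at 1.78 and 1.74. On replicate 2 it was 1.85, with both spots at 1.85. The *sim3-143* mean was 1.81 ± 0.06 (SD, n = 2 arrays), a 3.50-fold higher level, with all 4 data points past 2-fold. It ranked 12 of 4840 genes by this mean, counted from the highest.

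The limma fit over all genes gave a 95% confidence interval of 1.43 to 2.18 for *nop14* in *sim3-143*, with an unadjusted p of 5.27e-05 and an adjusted p of 0.114, and no gene had a lower one in that comparison. In this fit 0 of 4833 genes passed the adjusted threshold of 0.05, with 423 (8.75%) at an unadjusted p below 0.05, against 8.79% in *sim3-205* and 5.05% for the difference between the alleles, and 0 passed the adjusted threshold in those comparisons as well. With the *sim3-205* arrays left out of the fit the adjusted p from limma was 0.00242, without *sim3-205* replicate 1 it was 0.00240, and without *sim3-205* replicate 2 it was 0.00253. Without the grids of unrelated dyes it was 0.022. Over all alternatives the adjusted p from limma ranged from 0.00240 to 1, the mean log2 ratio itself staying at 1.81 in those 4 fits.

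In *sim3-205* the log2 ratio of *nop14* was 1.14 on replicate 1, from spots at 1.36 and 0.92, and 1.21 on replicate 2, from spots at 1.23 and 1.19. The mean was 1.17 ± 0.05 (SD, n = 2 arrays), a 2.26-fold higher level, with 3 of 4 data points past 2-fold and rank 88 of 4863. Both *sim3-205* arrays lay below both *sim3-143* arrays. The difference between the means was -0.63 (*sim3-205* minus *sim3-143*), which rests in part on the ratios known when the gene was included and is given without a test. All 8 data points were past 1.5-fold, as in 21 of the 4823 genes (0.435%) with 8 data points. One spot, at 0.92, fell short of 2-fold, which 9 genes passed in all 8. As 4 of these 8 points are *sim3-205* points of a gene chosen on those arrays, nothing is read from either count.

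The scanner intensities were also compared before normalization. For *nop14* the mean of 2 spots was 19724 for the mutant and 6830 for wild-type on *sim3-143* replicate 1, and 34172.5 and 12963 on replicate 2. On the *sim3-205* arrays it was 12066 for the mutant and 3257 for wild-type on replicate 1, and 13653.5 and 5379.5 on replicate 2. The mutant was brighter on each array, in Cy3 as in Cy5. These intensities do not keep the order of the alleles. They are not corrected for the dyes, whose medians on *sim3-205* replicate 1 were 1683 in Cy3 and 952.75 in Cy5. Between the 2 arrays of an allele the normalized ratio of *nop14* differed by -0.09 in *sim3-143* and by -0.07 in *sim3-205* (mutant in Cy3 minus mutant in Cy5). The dye cannot be told apart here from other differences between these arrays.

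The local background at the *nop14* spots stood apart on *sim3-143* replicate 1, at 1582 in the mutant's dye and 1033 in the other, against an array median of 150. The image software gave these spots code 3. The 16 spots around them had backgrounds of 247 to 1636 on that array and a median log2 ratio of 0.07. The genes of these spots ran from -0.73 (SPBC27B12.08) to 0.75 (SPBC725.03) there, beside an SD of 0.31 over all genes. On replicate 2 SPBC27B12.08 was at -0.44 and SPBC725.03 at 0.72. On replicate 2 the *nop14* background was 349 and 114, and on the *sim3-205* arrays it was between 100.5 and 121. The *sim3-143* mean without replicate 1 was 1.85, and it was 1.76 without background correction. The part of the background in the ratio of replicate 1 was otherwise not tested.

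**Figure D2:**
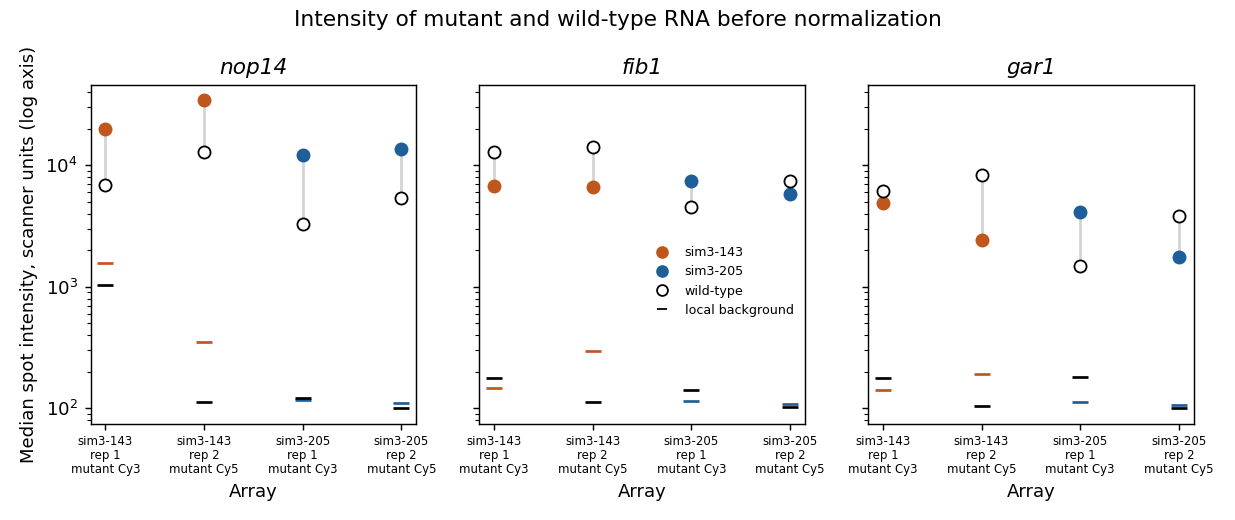
Median spot intensity (log axis, scanner units, mean of 2 spots) of *nop14*, *fib1* and *gar1* on each array (horizontal axis), filled for mutant and open for wild-type, with the local background as short bars in the colour of the mutant or in black for wild-type. The mutant is above wild-type on all 4 arrays for *nop14*. For *gar1* the mutant is below wild-type on 3 arrays and above it on *sim3-205* replicate 1.

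Genes near *nop14* on chromosome II were examined for the same change. *trr1*, next to it, has a product marked as missing on the arrays and was not analysed here. Farther along on the other side, and not adjacent to *nop14*, the spots named SPBC3F6.06c, which the gene table gives as *alg6*, a gene of protein N-glycosylation, had log2 ratios of 0.57 and -0.04 in *sim3-143* and of 0.57 and 0.81 in *sim3-205* (replicates 1 and 2). *alg6* did not pass the adjusted threshold of limma in either allele (adjusted p = 0.635 in *sim3-143* and 0.524 in *sim3-205*). The spots of *erg26*, an ergosterol synthesis gene beyond *trr1*, all carried the image code of empty spots, so its ratios are not given.

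Gar2 is the second small-subunit factor of the set, a nucleolin-like protein of fission yeast needed for normal small-subunit rRNA. In *sim3-143* its log2 ratio was -0.09 on replicate 1 and -0.92 on replicate 2. In *sim3-205* it was -0.00 on replicate 1 and -0.58 on replicate 2. The means were -0.50 ± 0.59 (SD, n = 2 arrays) and -0.29 ± 0.41, with limma adjusted p = 0.598 and 0.765. In each allele the array with the mutant in Cy5 was the lower.

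Box C/D snoRNPs were represented by 3 genes of the set. *fib1* encodes fibrillarin, the methyltransferase of these particles. Its log2 ratio was -0.79 on *sim3-143* replicate 1 and -0.63 on replicate 2, a mean of -0.71 ± 0.12 (SD, n = 2 arrays), or 1.64-fold lower, with 3 of 4 data points past 1.5-fold and the remaining one at -0.58. In *sim3-205* it was -0.10 on replicate 1 and -0.50 on replicate 2, with a mean of -0.30 ± 0.28 and no data point past 1.5-fold. The *sim3-143* arrays both lay below the *sim3-205* arrays, and the difference of 0.41 (*sim3-205* minus *sim3-143*) had a 95% interval of -0.22 to 1.03 and an adjusted p of 0.707 from limma. Against wild-type the adjusted p from limma was 0.533 in *sim3-143* (0.127 to 0.999 over the alternatives) and 0.636 in *sim3-205*, so *fib1* did not pass the test in either. With loess in each grid its *sim3-143* mean was -0.61, and it was no longer past 1.5-fold. Without *sim3-143* replicate 1 the call also ended, with the 2 spots of replicate 2 at -0.67 and -0.58.

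The intensities of *fib1* were 6786.5 for the mutant and 12793.5 for wild-type on *sim3-143* replicate 1, and 6606 and 14012 on replicate 2. On *sim3-205* replicate 1 the mutant was the brighter, at 7481 against 4524.5, on an array where the median Cy3 intensity was 1683 and the median Cy5 intensity 952.75. On *sim3-205* replicate 2 it was 5823.5 against 7437.5.

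*nop56* and *nop58* encode the paired scaffold proteins of the same particles. For *nop56* the log2 ratios were -0.04 and -0.07 in *sim3-143* and -0.12 and -0.18 in *sim3-205*. The means were -0.06 ± 0.02 and -0.15 ± 0.04 (SD, n = 2 arrays), with limma intervals of -0.43 to 0.31 and of -0.53 to 0.22. *nop58* had log2 ratios of 0.10 and 0.18 in *sim3-143* and of 0.10 and 0.11 in *sim3-205*, with intervals of -0.23 to 0.51 and of -0.27 to 0.48. None of the data points of either gene was past 1.5-fold. *snu13*, the RNA-binding protein of the particle and not one of the 8, had log2 ratios of -0.62 and 0.85 in *sim3-143*, on opposite sides of wild-type, and of 0.77 and 0.61 in *sim3-205*. It was past 1.5-fold in *sim3-205*, with an adjusted p of 0.612 from limma.

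Of the box H/ACA snoRNP, *cbf5* encodes the pseudouridine synthase (dyskerin in humans). Its log2 ratios were 0.11 and 0.26 in *sim3-143* and 0.02 and 0.08 in *sim3-205*, with limma intervals of -0.19 to 0.57 and of -0.33 to 0.43 around the means. No data point was past 1.5-fold.

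*gar1*, a glycine- and arginine-rich subunit of the same particle, varied most between arrays. Its log2 ratio was -0.20 on *sim3-143* replicate 1 and -1.45 on replicate 2. In *sim3-205* it was 0.73 on replicate 1 and -1.37 on replicate 2, on opposite sides of wild-type. The means were -0.82 ± 0.88 (SD, n = 2 arrays) and -0.32 ± 1.49, with 2 of 4 data points past 2-fold lower in each allele, so *gar1* was not past either fold. The limma intervals were -2.24 to 0.60 and -1.74 to 1.10, with adjusted p = 0.610 and 0.898.

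The spots of one array lay close for *gar1*, at most 0.35 apart, and the difference followed the dyes. With the mutant in Cy3 the ratio was 1.25 higher than with the mutant in Cy5 in *sim3-143* and 2.10 higher in *sim3-205*. Differences at least this large in both alleles were found in 3 of 4833 genes, *gar1* included. For *gar2* they were 0.83 and 0.58, and 63 genes (1.3%) had differences at least as large in both. Within an allele the dye cannot be told apart from any other difference between its arrays. In *sim3-205* these arrays also differ in the platform they were deposited under. The other subunits of the particle, not among the 8, differed the opposite way in both alleles, *nop10* at -0.10 and 1.07 in *sim3-143* and at -0.39 and 0.70 in *sim3-205*, and *nhp2* at -0.29 and 0.44 and at 0.27 and 0.70.

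*nop2*, for a large-subunit assembly factor and rRNA methyltransferase known from budding yeast, was near wild-type on 3 arrays. Its log2 ratios were 0.06 and 0.02 in *sim3-143* and 0.05 and 0.36 in *sim3-205*. The means were 0.04 ± 0.03 and 0.20 ± 0.21 (SD, n = 2 arrays), with limma intervals of -0.36 to 0.45 and of -0.20 to 0.61.

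The median log2 ratio of the 8 genes was -0.01 in *sim3-143* and -0.05 in *sim3-205*, beside medians of -0.01 and 0.01 over all 4833 genes tested. Without *nop14* the medians of the other 7 were -0.06 and -0.15. On each array 3 or 4 of these 7 were below wild-type.

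To set the 8 genes beside the rest of the pathway, 145 gene names of ribosome biogenesis were listed. Some of these names matched no gene or several in the gene table and were not used. They had 125 probes on the arrays, those of the 8 included. *noc1* had 2 of these probes, at 0.84 and -0.90 on *sim3-205* replicate 1, and both were counted. In *sim3-143*, 2 of the 125 (1.6%) were higher and 5 (4%) lower past 1.5-fold, beside 2.09% and 1.39% of all 4833 genes tested, and the median was -0.07. In *sim3-205*, 5 (4%) were higher and 0 lower, beside 2.61% and 0.621% of all genes tested, with a median of 0.05. *nop14*, chosen on those arrays, is among these 5, and without the 8 genes 4 of 117 (3.42%) were higher. None of the 125 passed the adjusted threshold of limma. At an unadjusted p below 0.05 from limma there were 4 higher and 7 lower in *sim3-143* and 9 higher and 1 lower in *sim3-205*. Over all genes tested these numbers were 257 higher and 166 lower in *sim3-143* and 284 higher and 141 lower in *sim3-205*. The small-subunit processome list held 42 genes on the arrays, with medians of -0.07 and 0.06, and *nop14* was the highest of them in *sim3-143* and the only one past 2-fold there. Its place at the top of the list in *sim3-205* follows from how it was included.

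**Figure D3:**
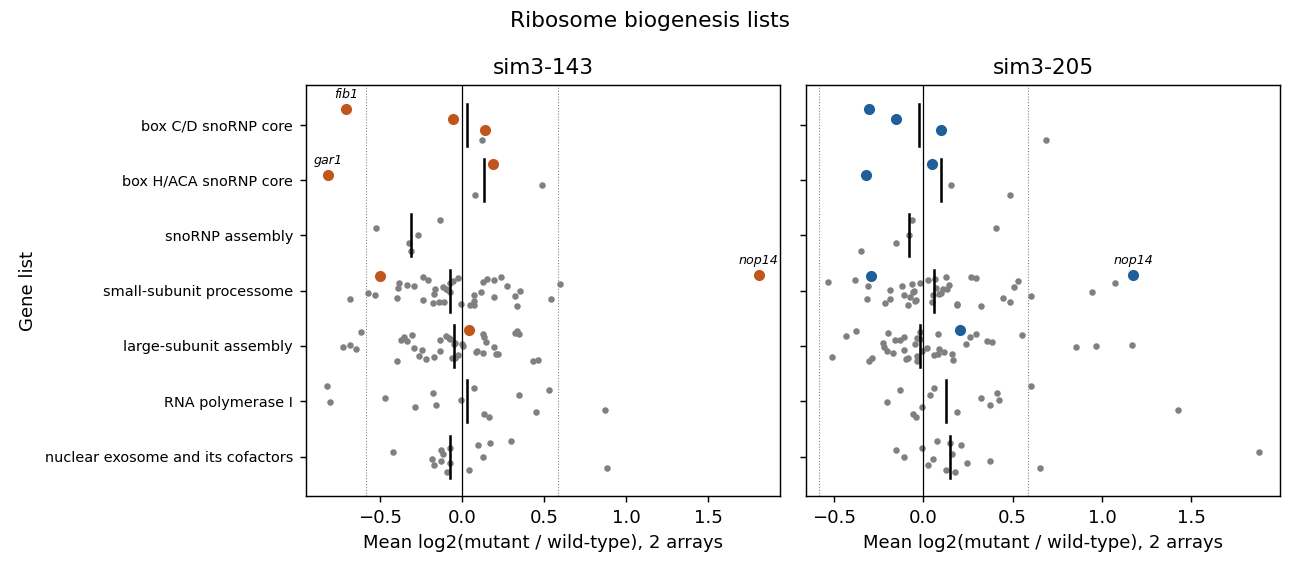
Mean log2 ratio over 2 arrays (horizontal axis) of every gene of 7 ribosome biogenesis lists (vertical axis), for *sim3-143* (left) and *sim3-205* (right). Coloured points are the 8 genes, grey points the other list genes, black bars list medians and dotted lines 1.5-fold. *nop14* lies at 1.81 and 1.17, while the list medians lie between -0.31 and 0.15.

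In *sim3-143* the only other list gene higher past 1.5-fold was *rrn6*, of an RNA polymerase I initiation factor, at 0.57 and 1.17 on the replicates. Those lower besides *fib1* were 4. *nuc1*, for the largest RNA polymerase I subunit, was at -0.83 and -0.81, and *rpc40*, for a subunit shared with RNA polymerase III, at -0.67 and -0.94. *rcl1*, of the small-subunit processome, was at -0.68 and -0.70, and *drs1*, for a large-subunit helicase, at -0.80 and -0.50. The limma adjusted p of these 5 genes lay between 0.533 and 0.598. In *sim3-205* the genes higher besides *nop14* were *rrn6* (2.06 and 0.79), *brx1* (1.90 and 0.44), *utp8* (1.36 and 0.79) and *snu13*. *rrn6*, *brx1* and *utp8* lie in the 3 grids of unrelated dyes on replicate 1. Without these grids the list genes past 1.5-fold in *sim3-205* were 2 of 111, *snu13* and *nop14*, beside 1.72% of 4419 genes. *nop14* counts there as a gene chosen on those arrays.

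All 5 snoRNP assembly genes on the arrays (*naf1*, *shq1*, *bcd1*, *rvb1* and *rvb2*) were below wild-type on both *sim3-143* arrays, as 32.8% of all genes were. Of the 117 list probes outside the 8 genes, these 5 included, 44.4% were. The 5 were named after these values were seen. Their *sim3-143* means ran from -0.53 to -0.14 with a median of -0.31, and none was past 1.5-fold. In *sim3-205* their median was -0.08, and 3 of the 5 were below wild-type on both arrays, as 25.7% of all genes and 14.5% of the 117 were.

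The genes whose ratios were most like those of *nop14* over its 8 data points (4 arrays, 2 spots each, so that the points share arrays) were *pol1*, *mrps26*, *ptl2*, *aah2* and *myo1*, with Pearson correlations of 0.99, 0.98, 0.97, 0.97 and 0.97. These follow the step from *sim3-143* down to *sim3-205* and not the level, since their means lay between 0.10 and 0.31 in *sim3-143* and between -0.73 and -0.21 in *sim3-205*. In all, 114 of 4822 genes had a correlation above 0.9.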

How the data were processed

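The deposited files hold, for each dye, unnormalized median intensities of spots and local background, and log2 ratios made by the authors of mutant over wild-type from a Lowess normalization in GeneSpring, whose background treatment is not stated. Comparison with the intensities gave the scale and direction of these ratios, whose medians per array were 0.0029, 0.0718, -0.0634 and 0.0086. They served as an alternative.

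Background was corrected by normexp with an offset of 50, and dyes were normalized by loess with a span of 0.3 per spot file, with limma 3.58.1 and R 4.3.3. Ratios with the mutant in Cy3 changed sign. Controls, missing products, 8 to 60 spots per array with image codes 1 or 4 and 73 spots at a Cy3 of 0 were left out. The 2 spots of a probe were averaged per array, and lmFit and eBayes were run on 4 arrays with a coefficient per allele and Benjamini-Hochberg adjustment over 4833 genes. Arrays have no depth; their number sets the precision. The scripts were tested on simulated data. Names came from the files and a gene table of ASM294v3, which matched 4648 of 4870 names.

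The 8 genes and the lists were chosen with earlier results of these data known. Genes named are the 8, *sim3*, the neighbours of *nop14*, list genes past 1.5-fold (at most 6 per allele, by mean) and the 5 genes most like *nop14*. *nop10*, *nhp2* and the snoRNP assembly genes were named after their values were seen. Alternatives were other background corrections and normalizations, the deposited ratios, filters, each array left out, a dye coefficient, each allele alone and names as written. One neighbour of *nop14* is not reported here. No promoter or protein sequence was used here.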

Additional observations from a re-analysis of the deposited data

Results flagged for a closer look

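A set of 25 genes with values on all arrays was checked for alleles on opposite sides of wild-type. It held the 8 genes, the 5 most like *nop14*, the list genes past 1.5-fold, *sim3* and neighbours of *nop14*. In 7 of the 25, both *sim3-143* arrays lay on one side of wild-type and both *sim3-205* arrays on the other. Outside the set, *shq1* (-0.44 and -0.62 in *sim3-143*, 0.62 and 0.19 in *sim3-205*) and the *noc1* probe SPAC4F10.09c (-0.29 and -0.33, 0.84 and 0.27) did so too. None of the 7 is among the 8 genes. The share of such genes over all genes was not counted, so nothing is read from the 7. For the difference between the alleles, limma called 0 of all 4833 genes tested at an adjusted p below 0.05. The 5 genes most like *nop14* were above wild-type in *sim3-143* and below it in *sim3-205*, with differences (*sim3-205* minus *sim3-143*) of -0.63 for *pol1*, -0.83 for *mrps26*, -0.85 for *ptl2*, -0.31 for *aah2* and -0.89 for *myo1*. They were chosen for their course over the same arrays, so no p is given for these differences. *brx1* and *utp8* were below wild-type in *sim3-143* and above it in *sim3-205*, with differences of 1.85 and 1.15 (adjusted p = 0.704 for each from limma), and both are printed in grids of unrelated dyes on *sim3-205* replicate 1.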

How the results depend on the processing

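With 2 arrays per allele the precision is low, and calls move with single arrays. The labels give the arrays no replicate numbers, so arrays were matched across the alleles only by the dye of the mutant. The fit with a dye coefficient, which groups the arrays by the dye of the mutant across the alleles, gave *nop14* an adjusted p of 0.094 in *sim3-143* (limma). *nop14* kept its direction in the 14 alternatives that kept the position names. Its mean there lay between 1.68 and 1.97 in *sim3-143* and between 0.76 and 1.22 in *sim3-205*. It was 0.72 and 1.75 with the deposited ratios as placed and 0.77 and 0.97 with the names as written. These 2 took values of other spots on *sim3-143* replicate 2 and *sim3-205* replicate 1, so no direction of *nop14* is read from them. As placed, the deposited ratios on *sim3-143* replicate 2 were -0.38 and -0.11. The causes of the shifts below were not tested unless given.

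The number of the 8 genes past 1.5-fold in *sim3-143* was 2. It was 1 (*nop14*) with loess in each grid, and 0 with the deposited ratios as placed or moved back to their spots, with the names as written and with all coded spots left out. Past 2-fold in *sim3-143* it was 1, and 0 under those last 4 alternatives. With coded spots left out and with the moved ratios, *nop14* had 2 data points there and could not reach 3. In *sim3-205* the number past 1.5-fold was 1, and 0 with the moved ratios, and the number past 2-fold was 1, and 0 with loess in each grid, the moved ratios and the names as written. With 1 array left out, where both points of a lone array had to pass, the *sim3-143* numbers ran from 2 to 3 past 1.5-fold and from 1 to 2 past 2-fold, the highest without *sim3-143* replicate 1. Past 1.5-fold these were then *nop14* with *gar2* and *gar1* lower, while the call of *fib1* ended, and past 2-fold *nop14* with *gar1* lower. In *sim3-205* they ran from 1 to 2 and from 0 to 2, with *gar1* lower without replicate 1 and none past 2-fold without replicate 2.

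The median of the 8 genes in *sim3-143* was -0.22 with loess in each grid, -0.10 with median centring, 0.63 and 0.061 with the deposited ratios as placed and moved, and 0.068 with the names as written. It ran from -0.026 to 0.010 with an array left out. In *sim3-205* it was -0.12 with loess in each grid and -0.12 with the deposited ratios as placed, and ran from -0.053 to 0.036 with an array left out.

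Directions turned for genes near wild-type or unsteady between arrays. With loess in each grid *nop58* was at -0.31 in *sim3-143* and *cbf5* at -0.021 in *sim3-205*, and the difference between the alleles for *nop58* was 0.39. With median centring *nop2* was at -0.025 in *sim3-143*, and the differences for *nop56* and *nop58* were 0.095 and 0.16. With the deposited ratios as placed *cbf5* was at -0.021 in *sim3-143*, and *nop58*, *cbf5* and *nop2* were at -0.12, -0.11 and -0.25 in *sim3-205*, with differences of 1.03 for *nop14* and -0.88 for *nop2*. Moved to their spots, they gave -0.012 for *nop58* and -0.053 for *cbf5* in *sim3-205*. With the names as written *gar2* and *nop56* were at 0.023 and 0.11 in *sim3-143* and *cbf5* at -0.016 in *sim3-205*, and the differences were 0.20 for *nop14*, -0.31 for *gar2*, -0.47 for *gar1* and -0.52 for *nop2*. With an array left out, the difference ran from -0.21 to 0.62 for *gar2*, from -0.083 to 0.0053 for *nop58* and from -0.55 to 1.55 for *gar1*. It turned for all 3 without *sim3-143* replicate 2 and for *gar2* and *gar1* without *sim3-205* replicate 1. The *sim3-205* value of *gar1* ran from -1.37 to 0.73, the latter without replicate 2.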
